A study of Mus musculus with 4 samples.

Results

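The genes described here encode bone morphogenetic proteins (BMPs), the protease that bears the BMP name without being a ligand, and the secreted proteins that hold BMPs in check. They were 10 genes, chosen by name: the ligands Bmp2, Bmp3, Bmp4, Bmp5 and Bmp7, the protease Bmp1, and the extracellular regulators Grem1, Nog, Chrd and Twsg1. The platform's gene table assigned 18 probe sets to 9 of them, out of 34945 probe sets that carried 1 gene symbol. Bmp3 had no probe set in that table and was not analysed here. Of the 9 genes, 7 had at least 1 probe set above a filter on low signals (a mean near 66.1 or higher), against 11744 of 18193 genes in all.

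Transcripts were measured once in each of 4 primary cultures of palatal mesenchyme, the connective tissue of the embryonic palate. The mice were outbred wild-type, and the embryos were at day 14 of gestation. One culture was untreated, and one received TGF-beta2 for 120 minutes. The third was given SB431542, an inhibitor of the TGF-beta type I receptor kinase, for 60 minutes and was then stimulated with TGF-beta2 for 120 minutes. The fourth was given 5Z-7-Oxozeaenol (oxozeaenol below), an inhibitor of the Tak1 kinase, on the same schedule. Doses, the number of embryos behind each culture and any vehicle given to the controls are not stated in the sources used here, and no array holds an inhibitor without TGF-beta2. With 1 array in each group there is no spread between replicates, so no difference below has a test or an error, and a gene is counted only where 2 arrays differed at least 2-fold.

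BMPs are secreted as dimers that bind type I and type II receptor kinases on the cell surface and lead to phosphorylation of Smad1, Smad5 and Smad9, which enter the nucleus and switch on genes such as those of the Id family. Outside the cell, noggin, chordin and gremlin bind BMP dimers and keep them from their receptors. In the developing palate, BMP signalling in the mesenchyme acts in growth of the palatal shelves, with Msx1 and Shox2 among the transcription factors of the same network.

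The arrays had a common level, and the 7 measured level controls (such as Actb and Rpl13a) all lay within 2-fold in all 6 comparisons. Of 10 palatal mesenchyme markers 9 were above the filter, among them Prrx1 (7983 to 11559 over the arrays), while both probe sets of Osr2 were under it. The cultures also held signals of other cells. The summed signal of 8 measured macrophage and blood markers was 55155 untreated, 52349 with TGF-beta2, 54815 with SB431542 and 47286 with oxozeaenol, with the haemoglobin gene Hba-a1 and the erythroid gene Alas2 under the filter. That of 8 measured epithelial markers was 1983 untreated, 1869 with TGF-beta2, 1972 with SB431542 and 5804 with oxozeaenol. Krt14 (2218) and Krt5 (1383) were the largest parts of the oxozeaenol sum. Trp63, Esrp1 and Shh were under the filter by their means over the arrays. On the oxozeaenol array Trp63 read 128, Esrp1 92.7 and Shh 28.7, against 37.2, 11.2 and 48.5 with TGF-beta2 alone. The sums of 3 measured endothelial markers (332 to 616) and 3 skeletal muscle markers (1196 to 1497) were low, with Pecam1, Cdh5 and Tek under the filter. In RNA from whole cultures, fewer cells of a type and less transcript per cell cannot be told apart.

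Promoter sequence was read for the member whose signal varied most over the arrays, Bmp4, and for Grem1 and Twsg1. By brightest probe set, Grem1 and Twsg1 varied by at most 1.33-fold. The aim was to set the DNA before the start of a varying gene beside that of steadier ones. The other Twsg1 probe set above the filter varied 1.83-fold, and those under it by up to 5.26-fold. The RefSeq promoter table (GRCm38.p6) held 5 of the 10 genes, the others being Bmp5 and Chrd. The windows are the 250 bases before the transcription start. They lie at chr14:46390670-46390919 (Bmp4), chr2:113758649-113758898 (Grem1) and chr17:65951188-65951437 (Twsg1), all on the minus strand, and capitals mark matches to any of the motifs searched.
Bmp4: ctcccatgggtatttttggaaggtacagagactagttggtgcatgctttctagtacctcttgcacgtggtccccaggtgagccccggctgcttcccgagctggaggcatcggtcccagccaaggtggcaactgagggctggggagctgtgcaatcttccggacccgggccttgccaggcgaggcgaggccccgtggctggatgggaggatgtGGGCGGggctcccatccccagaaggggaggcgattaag
Grem1: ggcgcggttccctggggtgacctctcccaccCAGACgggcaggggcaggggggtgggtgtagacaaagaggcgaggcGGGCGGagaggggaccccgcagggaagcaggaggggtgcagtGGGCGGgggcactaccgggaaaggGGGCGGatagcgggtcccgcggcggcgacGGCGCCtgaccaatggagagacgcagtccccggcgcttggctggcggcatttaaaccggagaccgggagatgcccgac
Twsg1: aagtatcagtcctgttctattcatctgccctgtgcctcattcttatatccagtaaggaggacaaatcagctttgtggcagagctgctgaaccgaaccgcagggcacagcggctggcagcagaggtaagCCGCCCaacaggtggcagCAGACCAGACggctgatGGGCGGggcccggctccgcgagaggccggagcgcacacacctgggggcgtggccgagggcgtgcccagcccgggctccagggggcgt

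Both strands were searched for 5 motifs: the Smad box CAGAC, the GC-rich Smad site GGCGCC, the AP-1 site TGANTCA, the EGR site GCGNGGGCG and the GC box GGGCGG. Matches to the EGR site can overlap a GC box. The Bmp4 window held 1 GC box, 38 to 33 bases before the start, and no match to the other motifs. The Grem1 window held 1 Smad box, 1 GC-rich Smad site and 3 GC boxes. In the Twsg1 window 2 Smad boxes lay side by side, 104 to 95 bases before the start, between 2 GC boxes. Of the windows not printed, that of Bmp5 held 1 Smad box and no other match. That of Chrd held 1 GC-rich Smad site and 4 GC boxes, and no Smad box. Over all 32851 promoter windows of this length, 42.2% held a Smad box, 9.59% a GC-rich Smad site, 6.75% an AP-1 site, 4.7% an EGR site and 32.7% a GC box. GC content was 63.2% for Bmp4, 72.0% for Grem1 and 64.4% for Twsg1, against a median of 52.4% over all windows. A match describes letters and not a bound site, and more distant elements were not examined.

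Among the ligands, Bmp4, a ligand made by palatal mesenchyme, differed most between arrays. Its signal was 239 untreated, 109 with TGF-beta2, 317 with SB431542 and 470 with oxozeaenol. The TGF-beta2 culture thus had the lowest reading and both inhibitor cultures read above the untreated one. The highest signal was 4.32 times the lowest, the widest spread of the 7 measured genes.

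**Figure D1:**
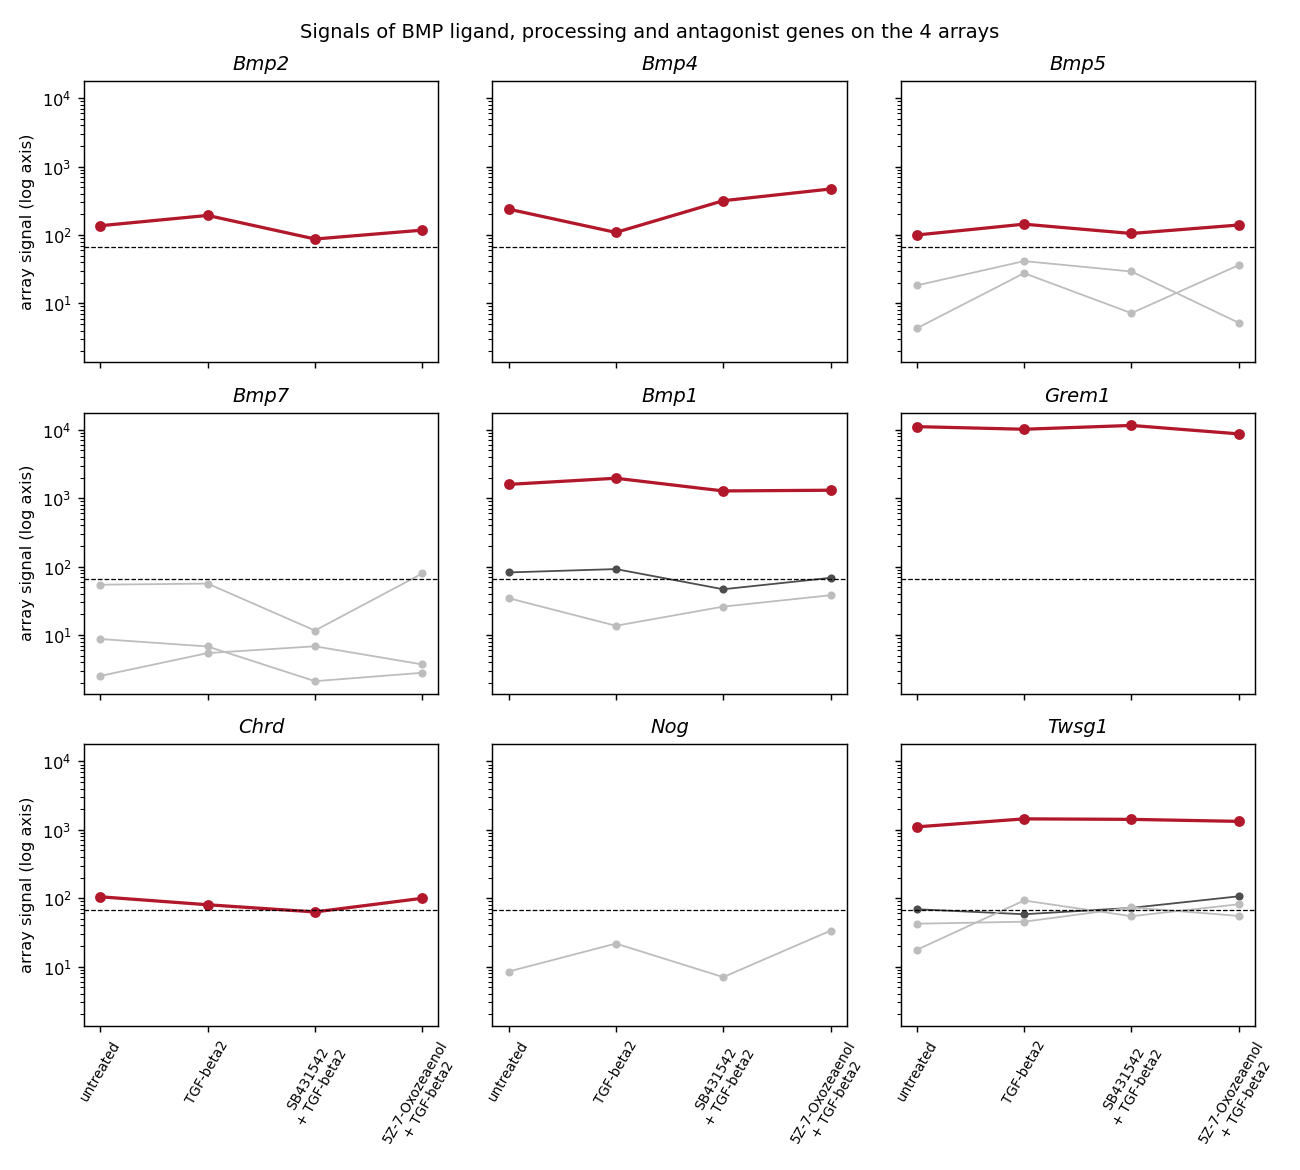
Array signal (vertical, log axis) on the 4 arrays (horizontal) for the 9 genes with a probe set. Each line joins the readings of 1 probe set, red for the one that stands for its gene, dark grey for others above the filter and light grey for those under it. The dashed line is the filter level of 66.1, and there is 1 array per condition and no error bar. Bmp4 dips to 109 with TGF-beta2 and reads 470 with oxozeaenol, Grem1 stays between 8719 and 11583, and Bmp7 and Nog lie mostly under the dashed line.

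The first comparison asks how these genes stood after TGF-beta2 alone. Bmp4 differed by -0.995 on the log2 scale used throughout (log2 of signal plus 21.7), a 1.99-fold difference just inside the 2-fold rule, and its signals as deposited differed 2.19-fold. Of 11744 genes, 44 were further down. None of the 7 measured members was at least 2-fold apart in this comparison, where 1.04% of all genes were (0.673% on the higher side and 0.366% on the lower). Bmp2, Bmp5, Twsg1 and Bmp1 were higher with TGF-beta2, by 0.44, 0.45, 0.38 and 0.30 in that order, and Chrd (-0.31) and Grem1 (-0.13) were lower. The median over the 7 members was 0.30, against -0.03 over all genes.

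Against TGF-beta2 alone, SB431542 put 1 of 7 members, Bmp4, past the 2-fold rule on the higher side and none on the lower. Of all genes 1.8% passed it (0.613% higher and 1.18% lower). The difference of Bmp4 was 1.37 on the log2 scale, a fold of 2.59, and 19 genes were further up. Against the untreated culture it was 0.38, within 2-fold.

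With oxozeaenol, again against TGF-beta2 alone, Bmp4 was the 1 member of 7 past the rule, on the higher side. Of all genes 3.99% passed it (1.82% higher and 2.17% lower). Bmp4 differed by 1.91, a fold of 3.77, and 41 genes were further up. It also read above the untreated culture, by 0.92, and above the SB431542 culture, by 0.54, both within 2-fold. Both inhibitor comparisons share the single TGF-beta2 array, so its reading of 109 enters both.

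In both inhibitor comparisons, dim genes passed the rule on the higher side more often than bright ones. Bmp4, with a mean signal of 284, belonged to the second of 4 equal groups of genes ordered from dim to bright. In that group 0.715% of genes passed it on the higher side with SB431542, and 2.55% with oxozeaenol. Bmp4 has 1 probe set on the array, so no second reading of its transcript exists here. RefSeq lists a Bmp4 pseudogene, Bmp4-ps, and whether its RNA could add to this signal was not tested. The summed epithelial signal above was highest on the oxozeaenol array, as was Bmp4. The sum was 1869 with TGF-beta2 and 1972 with SB431542, and Bmp4 read 109 and 317 on those arrays. The part of epithelial cells in the oxozeaenol reading was not tested. Of the mesenchyme markers 2 of 9 passed the 2-fold rule by their brightest probe sets, and both were lowest with TGF-beta2 alone by those probe sets. Pdgfra, a growth factor receptor of mesenchyme, read 3643 untreated, 1704 with TGF-beta2, 3835 with SB431542 and 3386 with oxozeaenol, and Shox2 read 1487, 842, 1718 and 2023. The 2 other probe sets of Pdgfra differed by only -0.06 and 0.07 between TGF-beta2 and untreated. Averaging its probe sets put Pdgfra at -0.36 with TGF-beta2 in place of -1.09. The summed mesenchyme signal was 64251 untreated, 64779 with TGF-beta2, 74277 with SB431542 and 68202 with oxozeaenol. Its largest parts were Vim, Col1a2 and Col1a1. The median difference of the 9 markers was -0.34 with TGF-beta2 over untreated. Against TGF-beta2 alone it was 0.53 with SB431542 and 0.21 with oxozeaenol. The part of mesenchyme content in the Bmp4 differences was not tested.

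Bmp2, a close relative of Bmp4 that signals through the same receptors, read 136 untreated, 193 with TGF-beta2, 87.2 with SB431542 and 118 with oxozeaenol. The TGF-beta2 culture was highest and the SB431542 culture lowest. SB431542 over TGF-beta2 gave -0.98, a 1.97-fold difference just inside the 2-fold rule, and 144 of all genes were further down. Oxozeaenol over TGF-beta2 gave -0.63. Thus Bmp4 was lowest and Bmp2 highest with TGF-beta2 alone, though Bmp2 lay in the dimmest of the 4 groups (mean 134) and also has 1 probe set.

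Bmp5, a ligand with roles in skeletal and craniofacial growth, read 99.8 untreated, 144 with TGF-beta2, 105 with SB431542 and 140 with oxozeaenol. The TGF-beta2 and oxozeaenol cultures were alike, and the other two lower. All of its differences were within 2-fold, and its 2 other probe sets stayed under the filter, with readings from 4.31 to 41.5.

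Bmp7, a ligand best known from kidney and eye development, had 3 probe sets, all under the filter. The brightest read 54.3 untreated, 56.3 with TGF-beta2, 11.6 with SB431542 and 79.2 with oxozeaenol, and the other 2 never passed 8.72. No difference of Bmp7 is read at this level.

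Bmp1 encodes a metalloprotease that cleaves procollagens and chordin. Its bright probe set read 1591 untreated, 1957 with TGF-beta2, 1276 with SB431542 and 1307 with oxozeaenol. The TGF-beta2 culture was the highest and both inhibitor cultures were below the untreated one, by 0.31 and 0.28. Against TGF-beta2 alone Bmp1 was lower by 0.61 with SB431542 and by 0.57 with oxozeaenol, within 2-fold, and a second, dim probe set differed by -0.73 and -0.33. The inhibitor differences of the bright probe set lay further down than all but 3.57% and 5.96% of genes. Another probe set, under the filter at 13.6 to 38.1, went the other way and was lowest with TGF-beta2 alone.

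**Figure D2:**
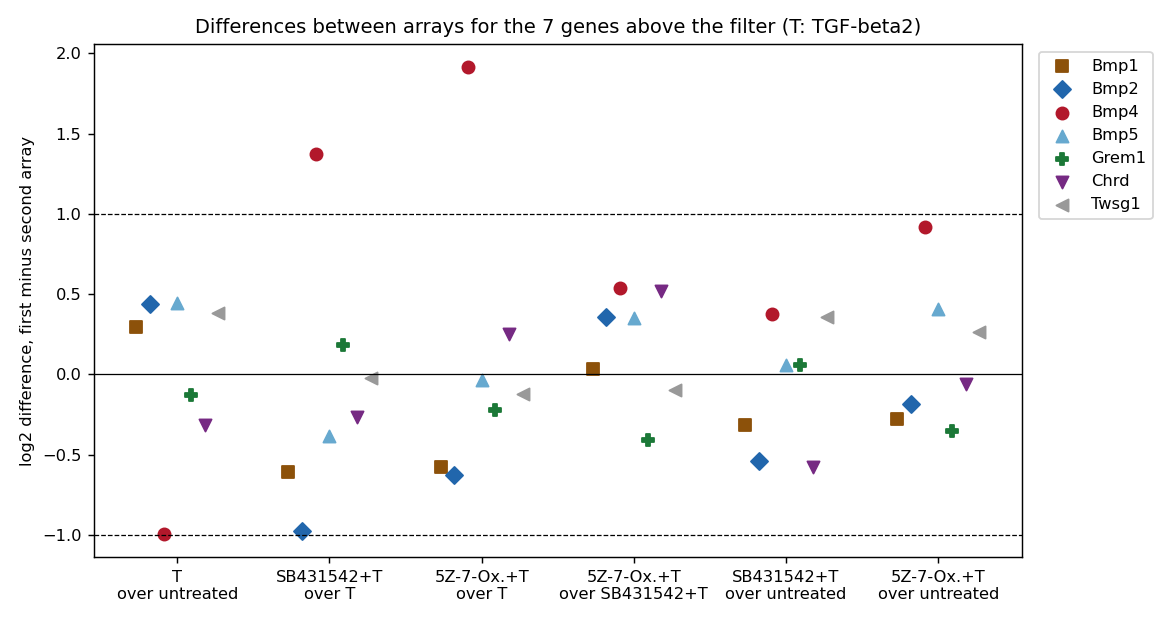
Log2 differences (vertical, log2 of signal plus 21.7, first array minus second) of the 7 genes above the filter in 6 comparisons (horizontal), with T for TGF-beta2 and 5Z-7-Ox. for 5Z-7-Oxozeaenol. Dashed lines mark 2-fold, and each point is a difference of 2 single arrays. Bmp4 is the 1 gene beyond a dashed line, at 1.37 and 1.91 over TGF-beta2 alone. On the lower side Bmp4 comes closest, at -0.995 with TGF-beta2 over untreated. Next is Bmp2, at -0.98 with SB431542 over TGF-beta2 alone.

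Among the antagonists, Grem1 encodes gremlin, a secreted protein that binds BMP2 and BMP4. It read 11125 untreated, 10188 with TGF-beta2, 11583 with SB431542 and 8719 with oxozeaenol. Its highest and lowest readings were 1.33-fold apart, with oxozeaenol the lowest at -0.41 against SB431542. At such signals a 2-fold difference is rare: in the brightest of the 4 groups, to which Grem1 belongs, 0.272% of genes were 2-fold higher and 1.12% lower with oxozeaenol than with SB431542.

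Chrd encodes chordin, which binds BMPs until a protease of the Bmp1 family cuts it. It read 105 untreated, 80.1 with TGF-beta2, 62.9 with SB431542 and 99.7 with oxozeaenol. The SB431542 culture was the lowest, just under the filter level, at -0.58 against untreated and -0.27 against TGF-beta2 alone. Chrd has 1 probe set, with a mean of 86.9.

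Twsg1 encodes twisted gastrulation, which binds BMPs and chordin together and can favour or block signalling. Its bright probe set read 1104 untreated, 1445 with TGF-beta2, 1421 with SB431542 and 1328 with oxozeaenol. All 3 stimulated cultures read above the untreated one, by 0.38, 0.36 and 0.26 in that order, and within 0.12 of each other. The 3 other probe sets were dim, and the 1 of them above the filter differed by -0.18 between TGF-beta2 and untreated, opposite to the bright one. With both averaged, Twsg1 read above TGF-beta2 alone by 0.10 with SB431542 and by 0.28 with oxozeaenol.

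Nog encodes noggin, an antagonist that blocks both receptor-binding faces of a BMP dimer. Its 1 probe set read 8.45 untreated, 21.7 with TGF-beta2, 7.01 with SB431542 and 33.5 with oxozeaenol, all under the filter. No difference of Nog can be read at this level.

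In the remaining comparisons no member was at least 2-fold apart, 0 of 7 in each. Of all genes 2.81% were apart between the inhibitors (1.51% higher with oxozeaenol, 1.3% lower). Between SB431542 and untreated 0.851% were (0.468% higher, 0.383% lower), and between oxozeaenol and untreated 3% (1.49% higher, 1.51% lower).

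The genes with the pattern most like that of Bmp4 were found by the root mean square distance of their 3 differences from untreated, over 4 arrays and all 11744 genes. They were Rnf144b (distance 0.15), which encodes a ubiquitin ligase, Fam110b (0.20), Hpgd (0.23), the prostaglandin-degrading dehydrogenase, Vars2 (0.23), a mitochondrial valyl-tRNA synthetase, and Stc1 (0.23), the secreted glycoprotein stanniocalcin. Rnf144b read 480 untreated, 237 with TGF-beta2, 542 with SB431542 and 833 with oxozeaenol. Like Bmp4 it was lowest with TGF-beta2 alone and highest with oxozeaenol. Stc1 read 290, 161, 319 and 480 in the same order. The TGF-beta2 readings of Fam110b (50.2), Hpgd (59.1) and Vars2 (33.5) lay under the filter level. The likeness follows from how these 5 genes were picked, rests on 4 arrays and was not tested. None of these 5 had a second probe set above the filter.

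**Figure D3:**
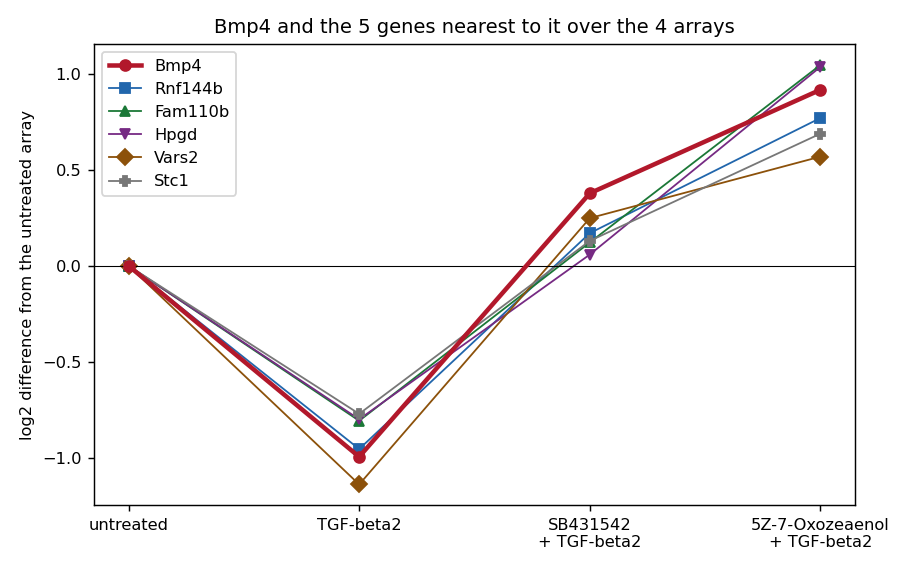
Log2 difference from the untreated array (vertical) on each array (horizontal) for Bmp4 and the 5 genes nearest to it, 1 array per condition. All 6 lines dip with TGF-beta2, Bmp4 to -0.995, and peak with oxozeaenol, Bmp4 at 0.92.

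The rest of the pathway was described from lists of genes grouped by role. Of 10 other ligands 2 were above the filter. Gdf10, a divergent member of the BMP family, read 97.4 untreated, 51.1 with TGF-beta2, 36.3 with SB431542 and 144 with oxozeaenol. Its TGF-beta2 and SB431542 readings lay under the filter level, and each difference given next uses 1 of them. Gdf10 was more than 2-fold higher with oxozeaenol than with TGF-beta2 alone (1.18) or with SB431542 (1.51), and lower with SB431542 than untreated (-1.04). With the median signal as pseudocount the first and last were 0.82 and -0.66. Bmp10, a ligand of the heart, read from 83.8 to 147 and stayed within 2-fold.

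Of 15 other extracellular regulators 8 were above the filter, and by the brightest probe set of each gene 1 was at least 2-fold apart in any comparison. That was Fstl3, a follistatin-like antagonist that binds activin, at 454 untreated, 737 with TGF-beta2, 326 with SB431542 and 550 with oxozeaenol. It was lower by 1.13 with SB431542 than with TGF-beta2 alone. Of the brightest others, Fstl1, a secreted glycoprotein, read 16701 to 19747, Bmper, a regulator related to chordin, 2210 to 2646, Fst, follistatin, 1681 to 2088, and Crim1, a transmembrane protein that binds BMPs, 1216 to 1758. A second probe set of Crim1 differed more from untreated, by 0.84 with TGF-beta2 and by 1.05, past 2-fold, with oxozeaenol. The list's median difference was -0.01 with TGF-beta2, and against TGF-beta2 alone -0.07 with SB431542 and -0.11 with oxozeaenol.

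By the brightest probe set of each gene, all 10 measured receptors and co-receptors of 12 were within 2-fold in the 6 comparisons. A second probe set of the co-receptor gene Eng was 1.04 higher with oxozeaenol than with SB431542, against 0.10 for its brightest. Bmpr2, the main type II receptor for BMPs, read 4789 untreated, 5987 with TGF-beta2, 4609 with SB431542 and 4468 with oxozeaenol. Acvr1, a type I receptor, read 2900, 3966, 2220 and 2500 in that order, which put it 0.83 lower with SB431542 and 0.66 lower with oxozeaenol than with TGF-beta2 alone. Its 2 other probe sets gave smaller differences, -0.54 and -0.21 with SB431542 and -0.08 and -0.15 with oxozeaenol. Bmpr1a, the type I receptor for BMP2 and BMP4, read 1872, 2793, 2494 and 3111. This brightest probe set differed by 0.57 with TGF-beta2 over untreated, and its others above the filter by -0.02 to 0.38. With oxozeaenol over TGF-beta2 alone it differed by 0.15, and the others by 0.04 to 0.76. The proteases that mature BMP precursors, and the procollagen C-proteinases with their enhancers, were within 2-fold for all 7 measured of 8. Furin, which cleaves BMP precursors, read 899 untreated, 1319 with TGF-beta2, 932 with SB431542 and 888 with oxozeaenol. Pcolce, which enhances Bmp1 activity on procollagen, read 12895 to 13636.

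Of 11 Smads and intracellular regulators 10 were measured, and none was at least 2-fold apart with TGF-beta2 over untreated. Smad1 (2582 to 3164) and Smad4 (4184 to 4684), which carry the signal to the nucleus, were within 2-fold in all 6 comparisons. Smad6, an inhibitory Smad that acts mainly on BMP receptors, read 2321 untreated, 1818 with TGF-beta2, 2530 with SB431542 and 4022 with oxozeaenol, 1.14 higher with oxozeaenol than with TGF-beta2 alone. Over TGF-beta2 alone, Smurf1 (-1.23), a ubiquitin ligase for BMP Smads, and Smad7 (-1.03) were lower with oxozeaenol, and the Smad corepressor gene Skil (-1.41) with SB431542. With the mean of all probe sets in place of the brightest, Smad7 was -0.76 and Skil -0.84, within 2-fold.

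**Figure D4:**
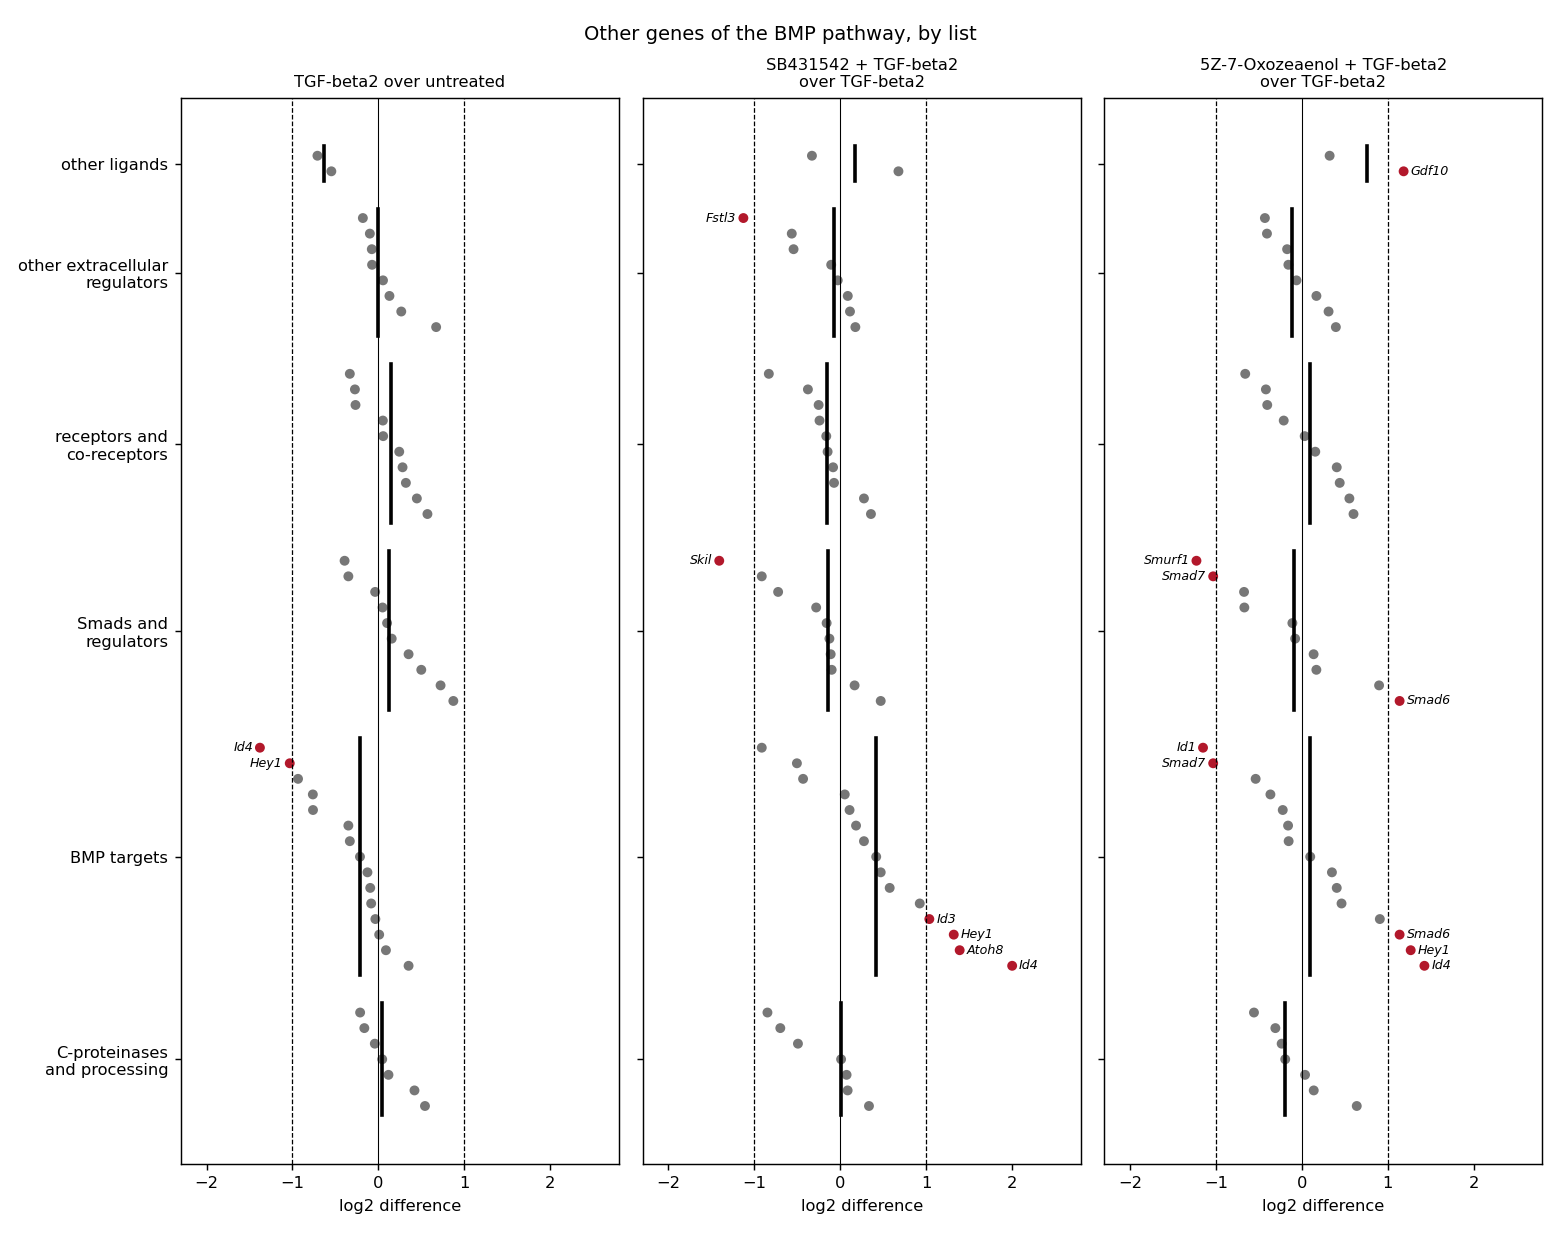
Log2 differences (horizontal) of measured genes in 6 lists of BMP pathway genes (vertical), in 3 comparisons. Each point is 1 gene, red with its name where at least 2-fold apart (dashed lines), and the black bar is the list's median. Some genes stand in both the Smad and the target list. Each gene is shown by its brightest probe set. The receptor list has no red point, and Id4 in the target list is 4.01-fold higher with SB431542.

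Of 17 BMP targets 15 were measured. The list shares Smad6, Smad7, Bambi, Grem1 and Nog with the groups above. With TGF-beta2 over untreated 2 were lower (Id4 and Hey1) and 13 within 2-fold, with a median of -0.21. With SB431542 over TGF-beta2 alone 4 were higher (Id4, Atoh8, Hey1 and Id3), none was lower, and the median was 0.42. Under quantile normalization Id3 was 0.99 in place of 1.04, which left 3, and the filter at the 75th percentile of signals left 2, Id4 and Id3. With oxozeaenol 3 were higher (Id4, Hey1 and Smad6), 2 were lower (Id1 and Smad7), and the median was 0.10. All genes had medians of -0.03, 0.03 and 0.05 in the same comparisons. With the median signal as pseudocount, Hey1 was -0.89 with TGF-beta2 in place of -1.03, within 2-fold.

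Id4, an inhibitor of helix-loop-helix transcription factors, read 1848 untreated, 697 with TGF-beta2, 2859 with SB431542 and 1909 with oxozeaenol. Its 3 probe sets were all lowest with TGF-beta2 alone. Id1, the best known target of BMP Smads, had another pattern, at 4944 untreated, 2905 with TGF-beta2, 5542 with SB431542 and 1295 with oxozeaenol. The oxozeaenol culture was the lowest for Id1 and the highest for Bmp4, and the difference of Id1 from the SB431542 culture was -2.08. Id3 read 8378, 4935, 10158 and 6290 in that order, lowest with TGF-beta2 alone, as was Bmp4. Msx1, the palatal homeobox gene, read 780 untreated, 729 with TGF-beta2, 1098 with SB431542 and 1012 with oxozeaenol, within 2-fold in all comparisons.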

How the data were processed

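Values are the signals of the series' table, 1 column per array. The authors deposited intensities on a linear scale, 45101 probe sets per array, made with GCOS, the Affymetrix software, per the submitters' processing notes. Neither its version nor its algorithm is stated there. Per the labels, biotin-labelled material was made from 500 ng of RNA. After setting aside the lowest and highest 2% of values the mean was 500.0 on every array, so the arrays had been scaled before deposit.

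Here 64 control probe sets were left out, 21.7 (the 25th percentile) was added and log2 taken. Probe sets whose mean log2 value reached the median were kept, and the brightest kept probe set stood for its gene. The counting step was tested on simulated data with changes much larger than 2-fold. That cannot judge calls near 2-fold or the spread between cultures. Members and gene lists were chosen with earlier results of these data known. All members were described, with list genes at least 2-fold apart and up to 4 of the brightest others per list, beside marker genes and the 5 genes nearest to the most variable member. Python 3.11.15 and pandas 2.3.3 were used. The 7 alternatives changed the pseudocount, filter, scaling or probe set rule. The number of arrays limits the precision.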

Additional observations from a re-analysis of the deposited data

How the results depend on the processing

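Of 270 values (the 7 measured genes in 6 comparisons under the alternatives that kept them), 260 kept their direction and their side of the 2-fold rule, with the fold between arrays changed by less than 1.5 times, and none of the 10 others reversed a difference of at least 2-fold. Part of the 260 could not move. A filter does not alter the value of a gene it keeps, and averaging changes nothing where 1 probe set was kept. Bmp4 over TGF-beta2 alone ranged from 1.11 to 1.49 with SB431542 and from 1.60 to 2.05 with oxozeaenol, higher under each alternative that kept it. Only the changes of pseudocount and scaling could move these Bmp4 values. TGF-beta2 over untreated ranged from -1.09 to -0.79 for Bmp4, and a smaller pseudocount, the 10th percentile, left 1 member (Bmp4) at least 2-fold apart there. For SB431542 over TGF-beta2 alone, 2 members were apart with that pseudocount and under quantile normalization (Bmp4 and Bmp2, the latter at -1.10 and -1.06), and 2 with no filter (Bmp4 and Bmp7). The filter at the 75th percentile, a signal near 409, left out Bmp4 and kept 3 members, so 0 were apart with SB431542 and 0 with oxozeaenol. With no filter Bmp7 made 1 member apart between the inhibitors and 1 between SB431542 and untreated. Small differences changed sign under other scalings: Bmp1 between the inhibitors, and Bmp5 and Grem1 between SB431542 and untreated. Twsg1 changed sign between stimulated cultures when its kept probe sets were averaged. The same alternatives were applied to the other pathway genes after seeing the data. Among all genes, the counts at least 2-fold higher and lower depended on the filter and the pseudocount. With no filter they were 350 and 278 for TGF-beta2 over untreated (79 and 43 as reported), 463 and 405 for SB431542 over TGF-beta2 alone (72 and 139), and 588 and 511 for oxozeaenol over TGF-beta2 alone (214 and 255). With the median signal as pseudocount they were 50 and 21, 31 and 86, and 141 and 197 in that order, and with the filter at the 75th percentile 30 and 17, 22 and 62, and 64 and 149. For oxozeaenol over SB431542 (177 and 153), SB431542 over untreated (55 and 45) and oxozeaenol over untreated (175 and 177), no filter gave 527 and 473, 457 and 258, and 565 and 359. The larger pseudocount gave 110 and 113, 25 and 16, and 113 and 130, and the stricter filter 46 and 85, 8 and 6, and 47 and 99. No paired analysis was possible because each group has 1 array. Without replicates, no value here measures the spread between cultures.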
